A study of Oryza sativa with 23 samples.

Results

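The genes of the Rubisco small subunit and of Rubisco activase were followed through roots and leaves of 2 rice varieties (Oryza sativa) with and without excess iron. They are 6 of the 35679 genes measured and were chosen by identifier: 5 small subunit genes, RBCS1 (OS02G0152400), RBCS2 (OS12G0274700), RBCS3 (OS12G0291100), RBCS4 (OS12G0291400) and RBCS5 (OS12G0292400), and the activase gene (OS11G0707000). By their identifiers RBCS1 lies on chromosome 2, activase on chromosome 11 and the other RBCS genes on chromosome 12. Names were assigned to identifiers with the choice of the set, since the files carry identifiers only. The names RBCS4 and RBCS5 may be used the other way round elsewhere, so values under them belong to the identifiers given here. The 6 genes hold 12 annotated transcripts, of which activase has 4, RBCS3 has 3, RBCS2 has 2 and each of the others has 1.

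Rubisco is the chloroplast enzyme that fixes carbon dioxide in the Calvin cycle. Its large subunits carry the active sites and are encoded in the chloroplast, while its small subunits are encoded by a family of nuclear RBCS genes and imported. Activase, a nuclear-encoded ATPase of the stroma, removes sugar phosphates that block the active site and so keeps the enzyme working in the light. In rice, the RBCS genes of chromosome 12 supply the small subunit of the leaf blade, whereas RBCS1 is a divergent member known for expression outside the leaf blade.

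RNA was sequenced from whole roots and from L2 leaves of 11-day-old plants. The variety Hacha comes from a cross of CRM 53 and IR 64, and the variety Lachit from one of CRM 13-3241 and Kalinga 2. Plants stood for their last 2 days, from day 9, either in control solution with 50 µM Fe EDTA at pH 6.2 or in solution to which 15 mM iron sulfate was added at pH 5.2, here called excess iron. All plants grew at 26 °C with 16 h of light at 220 µmol per square metre and second and 8 h of dark. Acidity and sulfate changed with iron, so their parts in a treatment difference cannot be told apart. Each of the 8 groups of variety, organ and solution had 3 libraries, except Hacha root under excess iron, which had 2. Separate plants for the libraries of a group are not stated in the labels, and the p-values rest on a spread between libraries that may be technical.

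Libraries held 16659607 to 33386840 estimated counts. The biological coefficient of variation was 33.6% in leaf and 17.7% in root. Mean correlations of a library with the others of its group lay between 0.987 and 0.991 in root and between 0.993 and 0.994 in control leaves of Lachit. They were lower in the other leaf groups, at 0.933 for library 3 and 0.946 for library 2 of Lachit leaf under excess iron, and at 0.964 for library 1 against 0.979 for the other libraries of Hacha control leaf. RBCS2 to RBCS5 are near-identical copies whose shared reads the counting program divides between them. Their split is therefore uncertain, and their sum is given beside them as the RBCS pool. In bulk tissue, fewer expressing cells and less RNA per cell cannot be told apart.

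In control leaves RBCS3 and RBCS2 were the most abundant of all genes by TPM (a transcript level relative to its length and to all transcripts of the library), with ranks 1 and 2 in Hacha and the reverse order in Lachit. RBCS2 stood at 21520, 28890 and 27690 TPM in control leaves of Hacha and at 30280, 30660 and 37650 TPM in those of Lachit. RBCS3 stood at 23100, 30440 and 29700 TPM in Hacha and at 31280, 32170 and 32340 TPM in Lachit. These genes overlapped with each other in level in both varieties and lay above the remaining members in every library.

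RBCS4 followed with 5283, 7212 and 5936 TPM in control leaves of Hacha and 3995, 3876 and 5603 TPM in those of Lachit. RBCS5 had 2033, 2763 and 2609 TPM in Hacha and 2402, 2159 and 2684 TPM in Lachit. Its only annotated transcript is 1994 bases long against 943 for RBCS4, which lowers its TPM for a given number of reads. Activase had 1469, 2134 and 2007 TPM in Hacha and 3484, 4699 and 4204 TPM in Lachit, rank 51 and rank 21 of all genes. The libraries of the 2 varieties did not overlap for activase. RBCS1 stood at 2.58, 1.05 and 1.07 TPM in control leaves of Hacha and at 1.29, 1.47 and 1.31 TPM in those of Lachit and ranked 18382 and 18781 of all genes.

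**Figure D1:**
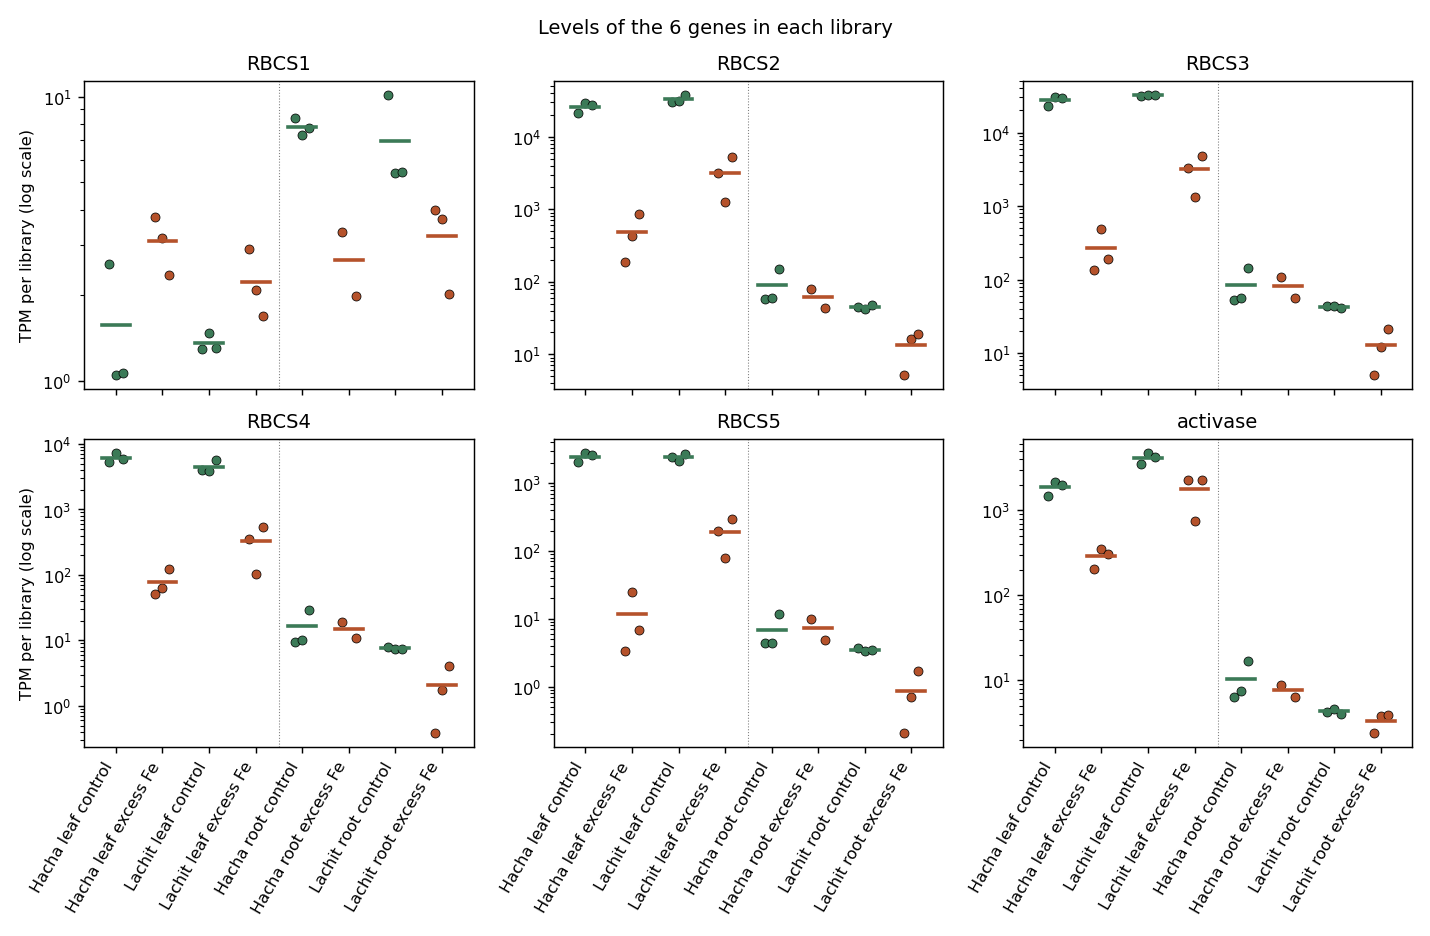
Level of each of the 6 genes in TPM on a log axis, with 1 point per library and a bar at the group mean, green for control and brown for excess iron. In leaves of each variety, RBCS2 to RBCS5 and activase are higher in control than under excess iron, while RBCS1 is highest in control roots.

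Excess iron lowered the RBCS pool and activase in leaves of both varieties. In Hacha the pool fell from 51940, 69310 and 65940 TPM to 375, 994 and 1173 TPM. In Lachit it fell from 67950, 68860 and 78270 TPM to 6940, 2785 and 10880 TPM. All excess-iron libraries lay far below all controls, and those of Lachit lay above those of Hacha. As a share of all counts the pool went from 4.23% ± 0.65 (SD, n = 3) to 0.0545% ± 0.026 (n = 3) in Hacha and from 4.89% ± 0.44 (n = 3) to 0.46% ± 0.27 (n = 3) in Lachit.

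In the quasi-likelihood test of edgeR, with p-values adjusted by Benjamini and Hochberg's method, the pool fell in Hacha leaf by 75.2-fold, with a 95% interval of 30.4 to 186 (log2 fold change -6.23, SE 0.59, adjusted p = 1.59e-05). In Lachit leaf the pool fell by 13.3-fold, interval 5.96 to 29.8 (log2 fold change -3.74, SE 0.53, adjusted p = 0.000632). Of the 6 genes, 5 were called lower in Hacha leaf, where 32.9% of all tested genes were called lower and 65.3% in either direction. In Lachit leaf 5 were called lower as well, against 19.1% of all tested genes lower and 38.7% in either direction. The median log2 fold change of the members was -5.96 in Hacha leaf and -3.68 in Lachit leaf, where the medians over all genes were 0 and 0.016.

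RBCS2 fell in Hacha leaf from 13030, 19910 and 17490 CPM (counts scaled to library size) to 148, 279 and 551 CPM, a 51.6-fold change (adjusted p = 3.3e-05, edgeR). In Lachit leaf it fell 13.1-fold, from 18820, 20280 and 25050 CPM to 1748, 738 and 2411 CPM (adjusted p = 0.001, edgeR). Within each variety the solutions did not overlap. Among the excess-iron leaves of Hacha, library 3 held the most RBCS2 and library 1 the least. Without library 3 the log2 fold change was -6.30 in place of -5.69, and it stayed called.

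RBCS3 went in Hacha leaf from 14650, 22200 and 19530 CPM to 105, 326 and 124 CPM, a 102-fold fall (adjusted p = 1.53e-05, edgeR). In Lachit leaf it went from 19060, 20590 and 21710 CPM to 1789, 792 and 2290 CPM, a 12.6-fold fall (adjusted p = 0.000852, edgeR). Library 2 held the most RBCS3 of the excess-iron leaves of Hacha and the least of those of Lachit. Without it the log2 fold change in Hacha was -7.44 in place of -6.67, and it stayed called.

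RBCS4 went in Hacha leaf from 3751, 5834 and 4405 CPM to 46.8, 48.4 and 92.1 CPM, a 74.7-fold fall (adjusted p = 1.63e-05, edgeR). In Lachit leaf it fell 17.3-fold, from 2910, 3007 and 4371 CPM to 235, 70.5 and 288 CPM (adjusted p = 0.000441, edgeR). Here too all treated libraries were below all controls.

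RBCS5 had the largest fitted fall of the members in Hacha leaf, 207-fold with an interval of 60.6 to 709, from 3420, 5325 and 4620 CPM to 7.22, 45 and 12.2 CPM (adjusted p = 2.49e-05, edgeR). The intervals of RBCS2, RBCS3 and RBCS4 overlapped with it, so no order among the copies is drawn. Without excess-iron library 2 of Hacha the log2 fold change of RBCS5 was -8.92 in place of -7.70, and it stayed called. In Lachit leaf RBCS5 fell 16-fold, from 4145, 3978 and 4968 CPM to 304, 128 and 385 CPM (adjusted p = 0.00157, edgeR).

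Activase fell less than the pool. In Hacha leaf it went from 2053, 3443 and 2946 CPM to 339, 507 and 420 CPM, a 6.67-fold fall with an interval of 3.57 to 12.4 (log2 fold change -2.74, SE 0.41, adjusted p = 0.000193, edgeR). In Lachit leaf it went from 4791, 6957 and 6339 CPM to 2712, 985 and 2423 CPM, a 2.96-fold fall with an interval of 1.63 to 5.37 (log2 fold change -1.56, SE 0.39, adjusted p = 0.0105, edgeR). In both varieties the treated libraries lay below the controls, with library 2 of Lachit the lowest of its group. The intervals of activase and of the pool did not overlap within either variety.

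RBCS1 moved the other way in Hacha leaf, from 1.97, 0.909 and 0.85 CPM to 3.7, 2.61 and 1.89 CPM. The rise of 2.21-fold was called (log2 fold change 1.15, SE 0.40, adjusted p = 0.0271, edgeR), as were 32.4% of all tested genes in that direction. The groups overlapped, since control library 1 lay above excess-iron library 3, and the counts were 19 to 82 reads a library. The call was lost without any of 6 of the 12 leaf libraries (Hacha control 2 or 3, Hacha excess iron 1 or 2, Lachit control 2 or 3), and the log2 fold change ranged from 0.78 to 1.63 when leaving out each in turn. In Lachit leaf RBCS1 stood at 1.01, 1.22 and 1.09 CPM in control and at 2.04, 1.53 and 0.978 CPM under excess iron, and no change was called (log2 fold change 0.44, SE 0.41, adjusted p = 0.414, edgeR).

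**Figure D2:**
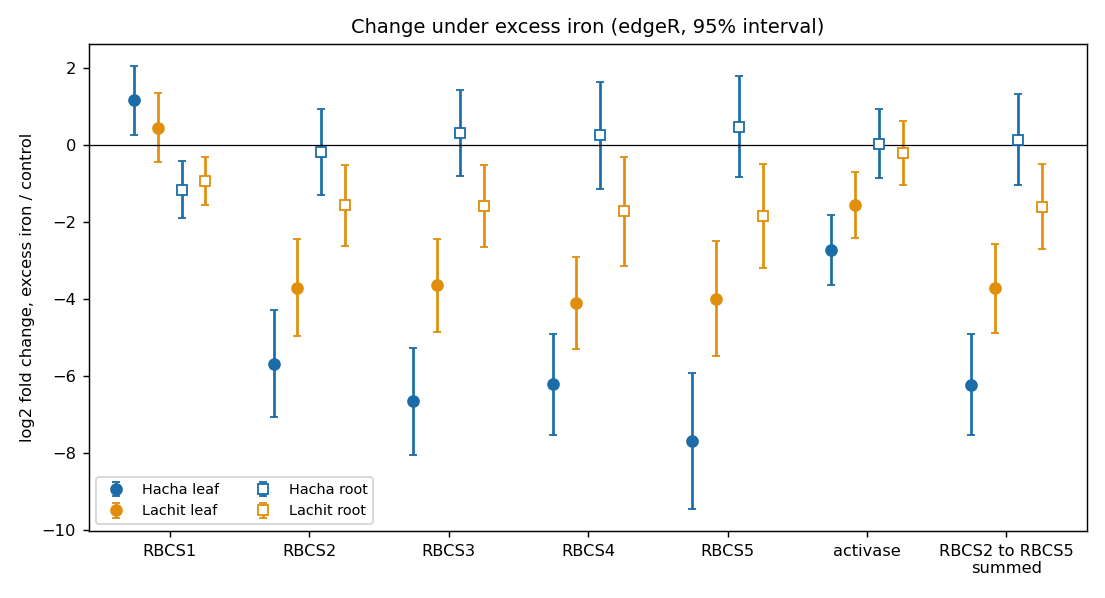
Log2 fold change of excess iron over control for each gene and for the summed chromosome 12 genes, as points with 95% intervals from the edgeR fits, filled for leaf and open for root, blue for Hacha and orange for Lachit. The leaf values of RBCS2 to RBCS5 lie between -7.70 and -3.66, those of activase at -2.74 and -1.56, and the Hacha root values of RBCS2 to RBCS5 between -0.19 and 0.47.

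The leaf fall of the pool was steeper in Hacha than in Lachit. The difference of the log2 fold changes, Lachit minus Hacha, was 2.50 (SE 0.68, adjusted p = 0.0329, edgeR), equal to a 5.65-fold smaller fall in Lachit with an interval of 2.01 to 15.9. Of the members, 2 were called in this comparison, RBCS3 with a difference of 3.01 (SE 0.71, adjusted p = 0.0222) and RBCS5 with one of 3.69 (SE 0.88, adjusted p = 0.0227), against 8.49% of all tested genes called in that direction and 16.5% in either. RBCS2, with a difference of 1.98 (adjusted p = 0.0862), RBCS4, with 2.11 (adjusted p = 0.0562), activase, with 1.17 (adjusted p = 0.151), and RBCS1, with -0.70 (adjusted p = 0.402), were not called by edgeR. The call for the pool was lost without any of 7 of the 12 leaf libraries (Hacha control 2 or 3, Lachit control 1, 2 or 3, Lachit excess iron 1 or 3), with the difference between 2.18 and 2.84 and the adjusted p between 0.0101 and 0.0884. The calls for RBCS3 and RBCS5 were lost without any of 6 and of 4 of these same libraries, with adjusted p up to 0.0649 and 0.0623. Without Hacha excess-iron library 2 the differences were 3.77 for RBCS3 and 4.90 for RBCS5, both called. DESeq2 called RBCS2 and RBCS4 as well.

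At the level of genes, Lachit and Hacha did not differ detectably in any member in control leaves, where 19% of all genes were called. The pool had a log2 difference of 0.15, with a 95% interval of -0.89 to 1.19 (adjusted p = 0.861, edgeR). Activase was 2.14-fold higher in Lachit, with an interval of 1.19 to 3.87 before adjustment, and missed the threshold (adjusted p = 0.0725, edgeR). It was called by DESeq2, with a log2 difference of 1.06, and when the control leaves were fitted alone, with 1.12. Among its transcripts, OS11T0707000-01, at 2.11 (adjusted p = 0.012), and OS11T0707000-04, at 2.35 (adjusted p = 0.00883), were called higher in Lachit (log2, edgeR on transcripts). OS11T0707000-03 was called higher too (adjusted p = 0.000359), and OS11T0707000-02 was not called (0.99, adjusted p = 0.167, edgeR on transcripts). In this comparison 16.4% of all transcripts were called.

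Under excess iron 5 of the 6 genes were higher in leaves of Lachit than in those of Hacha, against 22.5% of all tested genes higher in Lachit and 42.6% in either direction. The pool was 6.27-fold higher, with an interval of 2.91 to 13.5 (adjusted p = 0.00234, edgeR), and activase 4.83-fold higher, with an interval of 2.62 to 8.92 (adjusted p = 0.00158). RBCS5 was 12.7-fold higher (adjusted p = 0.00192), RBCS3 8.79-fold (adjusted p = 0.0013), RBCS2 5.01-fold (adjusted p = 0.00675) and RBCS4 3.17-fold (adjusted p = 0.0193, all edgeR). RBCS1 was not called, with a log2 difference of -0.86 (adjusted p = 0.102, edgeR). The call for RBCS4 was lost without any of 4 of the 12 leaf libraries (Hacha excess iron 1 or 2, Lachit excess iron 1 or 3), with adjusted p up to 0.0591, and with the excess-iron leaves fitted alone (adjusted p = 0.0683, edgeR). Without Hacha excess-iron library 2 the log2 differences were 3.87 for RBCS3 in place of 3.14 and 4.85 for RBCS5 in place of 3.66, and without library 3 that of RBCS2 was 2.93 in place of 2.33. Sequence differences of the varieties from the reference can change how reads are matched to the copies, and their part in these differences was not tested.

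Since the pool fell more than activase in leaves, the relation between their levels changed there. Activase stood at 2.83, 3.08 and 3.04 TPM per 100 TPM of the pool in control leaves of Hacha and at 54.9, 35 and 26.5 under excess iron. In Lachit it stood at 5.13, 6.82 and 5.37 in control leaves and at 32.9, 27.3 and 20.8 under excess iron. The solutions did not overlap in leaves of either variety. In Lachit root activase stood at 4.17, 4.84 and 4.07 in control and at 22.1, 12.3 and 8.48 under excess iron, also without overlap. In Hacha root it stood at 5.06, 5.76 and 5.01 in control and at 4.14 and 5.50 under excess iron, with overlap. By rank of mean TPM, activase went from 51 to 515 of 35679 genes in Hacha leaf and from 21 to 30 in Lachit leaf, while RBCS2 went from 2 to 273 and from 1 to 16.

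**Figure D3:**
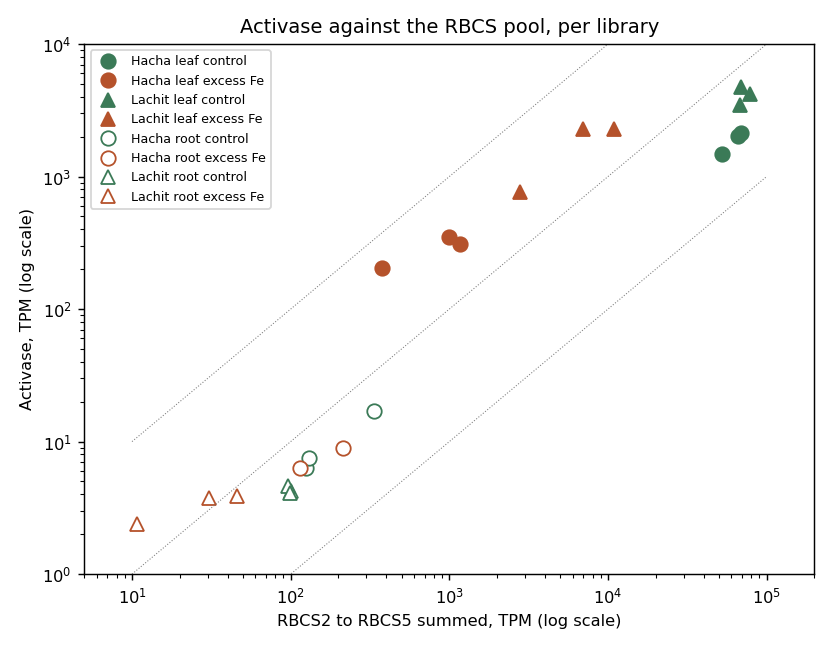
Activase against the summed RBCS2 to RBCS5, both in TPM on log axes, with 1 point per library, filled for leaf and open for root, circles for Hacha and triangles for Lachit. Dotted lines join points of equal ratio, and the brown leaf points lie on a higher ratio than the green ones, from 20.8 to 54.9 against 2.83 to 6.82 activase per 100 of the pool.

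RBCS2 and RBCS3 each exceeded RBCS4, and RBCS4 exceeded RBCS5, in the mean TPM of all 8 groups, an order that holds for TPM and in part turns for counts. In control leaves of Hacha the pool consisted of 44.5% ± 0.56 RBCS3, 41.7% ± 0.28 RBCS2, 9.86% ± 0.75 RBCS4 and 3.95% ± 0.036 RBCS5 (SD, n = 3). In control leaves of Lachit the shares were 44.7% ± 2.9 RBCS3, 45.7% ± 2.1 RBCS2, 6.22% ± 0.82 RBCS4 and 3.37% ± 0.21 RBCS5 (n = 3). RBCS5 took 1.31% ± 1 of the pool in Hacha leaf under excess iron and 2.8% ± 0.05 in that of Lachit (n = 3 each), below every control library of its variety. RBCS4 went from 6.22% to 4.59% in Lachit leaf, also without overlap. In Hacha root, with 2 libraries under excess iron, RBCS5 went the other way, from 3.455% to 4.387%. There RBCS2 went from 45.4% to 37.1%, RBCS3 from 43.1% to 49.3% and RBCS4 from 8.07% to 9.16%, all without overlap.

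The RBCS2 share was 50.1%, 42.5% and 73% in the excess-iron leaves of Hacha, against 41.4% to 42% in their controls. Library 3 set this spread, with 73% RBCS2 and 16% RBCS3. In Lachit leaf the RBCS2 share was 45.7% ± 2.1 in control and 46% ± 1.7 under excess iron (n = 3 each). The exact two-sided permutation test cannot go below p = 0.1 with 3 libraries against 3, and none of the 45 shares tested passed (smallest adjusted p = 0.321). Of these 45 shares, of genes and of transcripts, 20 had no overlap between the solutions. Shares of estimated counts in place of TPM gave larger parts to RBCS5, the longer transcript, and turned its order with RBCS4 outside Hacha leaf. In Hacha leaf the mean count share of RBCS5 was below that of RBCS4, 9.95% against 10.4% in control and 3.46% against 11.3% under excess iron. It was above in Lachit leaf, 8.8% against 6.85% in control and 7.34% against 5.07% under excess iron. It was also above in Hacha root, 8.82% against 8.7% in control and 11.1% against 9.74% under excess iron, and in Lachit root, 9.06% against 8.35% and 6.83% against 6.59%. These differences between the 2 genes in count share were not tested.

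**Figure D4:**
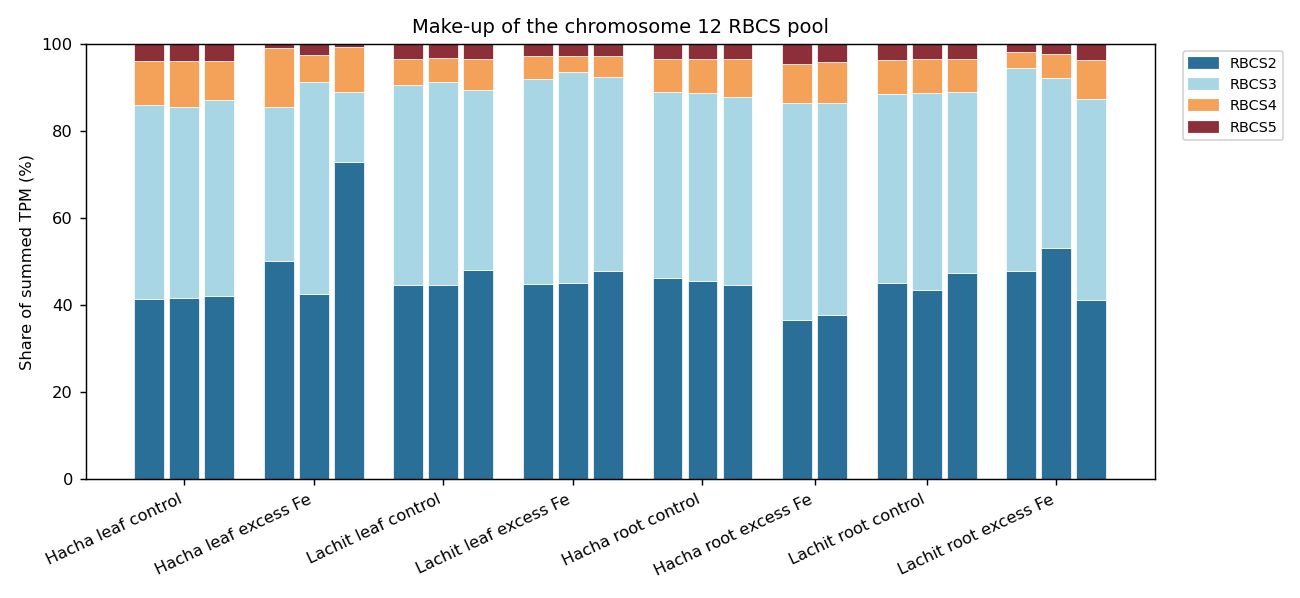
Share of RBCS2 to RBCS5 in their summed TPM, with 1 stacked bar per library from 0 to 100%. RBCS2 and RBCS3 together make up most of the pool in every library, and the 3 excess-iron leaf libraries of Hacha differ most among themselves, with 42.5% to 73% RBCS2.

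Most activase reads were assigned to transcript OS11T0707000-02, which held 97.9% ± 0.66 of the gene's TPM in control leaves of Hacha and 84.5% ± 5.8 in those of Lachit (SD, n = 3). Under excess iron its share was 65% ± 14 in Hacha leaf and 76.2% ± 20 in Lachit leaf (n = 3). This transcript fell in Hacha leaf by 3.22 on the log2 scale (SE 0.48, adjusted p = 0.000278) and in Lachit leaf by 1.76 (SE 0.46, adjusted p = 0.0157, edgeR on transcripts, where 61.3% and 31.3% of all transcripts were called). The difference between the varieties was not called (1.46, adjusted p = 0.14), in a comparison where 11.3% of transcripts were.

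The transcript OS11T0707000-03 showed the reverse in Hacha leaf. It was assigned no reads in the 3 control leaf libraries of Hacha and 2896, 1667 and 2647 reads under excess iron. Against a floor of 3 reads over the control group the rise was at least 2466-fold, a bound that allows for sampling of reads only. Transcript -02 was assigned 42504, 101752 and 65271 reads in the same controls, so a small error in the division of reads would lower that value. In Lachit leaf transcript -03 had 19611, 14186 and 9536 reads in control and 31392, 3725 and 2360 under excess iron. These groups overlapped, and no change was called in Lachit (log2 fold change -0.54, SE 0.84, adjusted p = 0.665, edgeR). In Hacha the change was called (adjusted p = 0.00022), and so was the difference of the responses (adjusted p = 0.0082). Transcript -03 was also called higher in Lachit than in Hacha in control leaves (adjusted p = 0.000359, edgeR on transcripts). Reads that match both transcripts were divided between them by the counting program, and the files do not hold the error of that division. In share of TPM, transcript -03 held 41%, 15% and 32.5% in the excess-iron leaves of Hacha. Its reads in roots were few. In Hacha root transcript -03 had 55, 24 and 62 reads in control and 0 and 12 under excess iron, the opposite direction to Hacha leaf. In Lachit root it had 10, 23 and 0 reads in control and 36, 0 and 8 under excess iron.

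**Figure D5:**
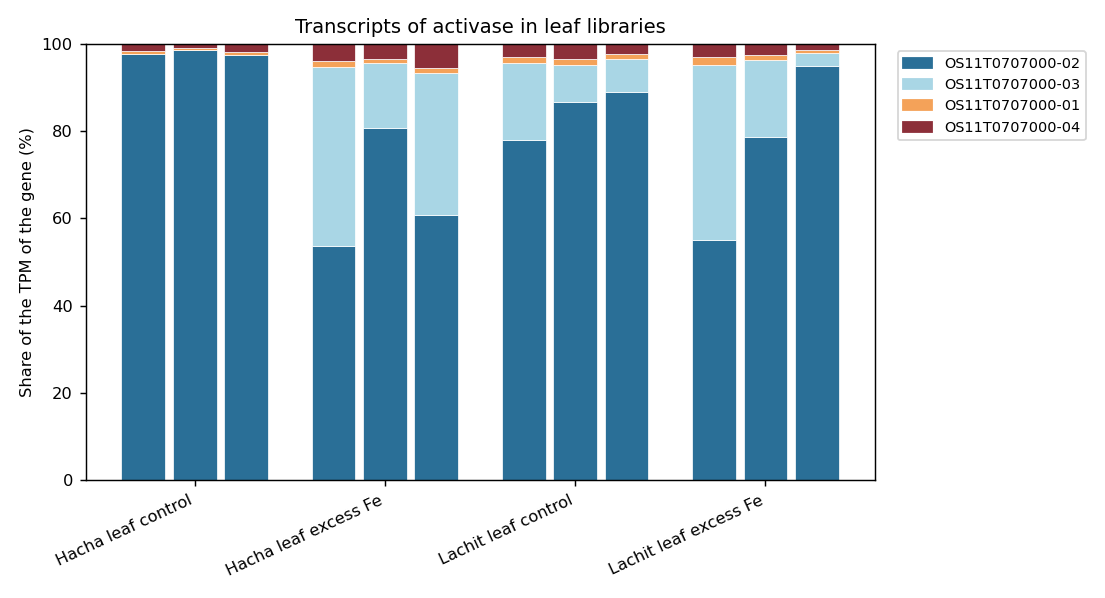
Share of the 4 annotated activase transcripts in the gene's TPM, with 1 stacked bar per leaf library from 0 to 100%. Transcript -03 is assigned no reads in the control leaves of Hacha and holds 15% to 41% in their excess-iron leaves. In Lachit it is present in both solutions.

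The other activase transcripts held little. OS11T0707000-01 took 0.678% to 1.28% of the gene on average in the 4 leaf groups and OS11T0707000-04, annotated with 184 bases, took 1.41% to 4.25%. The third RBCS3 transcript, OS12T0291100-03, had no reads in any of the 23 libraries. In RBCS2, OS12T0274700-01 went from 0.11% to 2.42% of the gene's mean TPM share in Hacha leaf and from 0.18% to 1.88% in Lachit leaf. In roots the solutions overlapped in this share. Its log2 fold change in Hacha leaf was -1.43 (adjusted p = 0.00523), against -5.785 for OS12T0274700-02 (adjusted p = 6.13e-05, edgeR on transcripts). In Lachit leaf it was not called (-0.44, adjusted p = 0.357, edgeR on transcripts).

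In roots the RBCS pool was low in all groups. A change was called in Lachit and not in Hacha, while the difference between these responses was itself not called (adjusted p = 0.12, edgeR). In Hacha root it stood at 73.8, 78.8 and 199 CPM in control and at 163 and 91.8 CPM under excess iron. Control library 3 had more than the others for every chromosome 12 copy and for activase, and the groups overlapped. No change of the pool was called (log2 fold change 0.12, 95% interval -1.06 to 1.31, adjusted p = 0.857, edgeR). Without control library 3 the log2 fold change was 0.77, also not called.

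In Lachit root the pool fell from 62.8, 62.7 and 68 CPM to 7.93, 20.2 and 35.3 CPM. The libraries did not overlap, and those under excess iron spread more than the controls. The fall was 3.06-fold, with an interval of 1.43 to 6.59 (log2 fold change -1.62, SE 0.50, adjusted p = 0.0165, edgeR). Of the members, 5 were called lower in Lachit root, where 29.3% of all tested genes were called lower and 58.7% in either direction. RBCS2 fell 2.98-fold, RBCS3 3.04-fold, RBCS4 3.33-fold and RBCS5 3.62-fold (adjusted p between 0.0141 and 0.0381, edgeR). The RBCS4 call was lost without any of 5 of the 6 Lachit root libraries (all but excess iron 3), with log2 fold changes from -1.75 to -1.23, and the RBCS5 call without excess-iron library 1 or 2, at -1.38 and -1.67. Without excess-iron library 3 the log2 fold changes were -2.21 for RBCS3, -2.73 for RBCS4 and -2.85 for RBCS5, in place of -1.61, -1.74 and -1.86. The median log2 fold change of the members was -1.59 against 0 over all genes.

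RBCS1 was called lower in the roots of both varieties and was the only member called in Hacha root, where 32.7% of all genes were called lower and 62.3% in either direction. It went from 5.71, 5.02 and 5.35 CPM to 2.87 and 1.83 CPM in Hacha root, a 2.25-fold fall (adjusted p = 0.0107, edgeR). In Lachit root it went from 7.28, 4.1 and 4.28 CPM to 3.38, 2.9 and 1.83 CPM, a 1.93-fold fall (adjusted p = 0.0139, edgeR). No library under excess iron reached a control of its variety. The call was lost in Hacha without excess-iron library 2, where the log2 fold change was -0.90, and in Lachit without control library 1, where it was -0.63.

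Activase stood at 7.67, 8.16 and 21.2 CPM in control roots of Hacha and at 14.3 and 10.7 CPM under excess iron (log2 fold change 0.03, interval -0.86 to 0.91, adjusted p = 0.964, edgeR). The Hacha groups overlapped, and leaving out control library 3 gave a log2 fold change of 0.69 that was called. In Lachit root activase stood at 5.57, 6.44 and 6.01 CPM in control and at 3.53, 5.51 and 6.48 CPM under excess iron, with overlap and no call (log2 fold change -0.22, interval -1.04 to 0.61, adjusted p = 0.64, edgeR).

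The root responses of the varieties were not shown to differ in any member, with 19.4% of all genes called. The pool's difference was -1.74 (SE 0.72, adjusted p = 0.12, edgeR), and it was called without Hacha control library 3, at -2.39, or without Lachit excess-iron library 3, at -2.32. In control roots none of the members was called different between the varieties by edgeR, with 29.7% of all genes called. Every Hacha library there lay above every Lachit library in TPM for RBCS2 to RBCS5 and activase, while those of RBCS1 overlapped. The share of all genes without overlap in this comparison was not counted, so no difference is drawn from this order. The pool in control roots had a log2 difference of -0.86, with an interval of -1.93 to 0.21 (adjusted p = 0.212, edgeR). Activase there had a log2 difference of -1.04 (adjusted p = 0.0549, edgeR), which DESeq2 and 4 other settings called.

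Under excess iron the order of the varieties in root was the opposite of that in leaf. Of the members, 5 were lower in Lachit root than in Hacha root, against 20.1% of all genes lower and 46.7% in either direction. The pool was 6.06-fold lower in Lachit, with an interval of 2.63 to 14 (adjusted p = 0.0029, edgeR), and activase 2.43-fold lower, with an interval of 1.3 to 4.52 (adjusted p = 0.0247). The activase call was lost without Hacha excess-iron library 1 or 2 or without Lachit excess-iron library 1, with log2 differences from -1.47 to -1.04, and that of RBCS2 without Hacha excess-iron library 1, at -1.79. Without Lachit excess-iron library 3 the log2 differences were -3.35 for RBCS3, -3.94 for RBCS4 and -4.15 for RBCS5, in place of -2.75, -2.94 and -3.15. RBCS1 did not differ detectably (log2 difference 0.19, interval -0.56 to 0.95, adjusted p = 0.666, edgeR).

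The pool and activase were far higher in control leaf than in control root. In a fit of all 23 libraries the pool was 522-fold higher in leaf than in root in Hacha control and 1003-fold in Lachit control (adjusted p = 1.79e-09 and 7.5e-10, edgeR). Activase was 311-fold and 1307-fold higher in leaf (adjusted p = 8.46e-11 and 1.27e-11). In these comparisons 67% and 66.1% of all genes were called. The medians of all genes lay at -0.15 and -0.24 on the log2 scale, far nearer to 0 than these differences. Without control root library 3 of Hacha the log2 difference was 9.65 in place of 9.03 for the pool and 8.93 in place of 8.28 for activase.

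Under excess iron the pool was 6.03-fold higher in leaf than in root in Hacha, with an interval of 2.43 to 15 (adjusted p = 0.00184, edgeR), where 53.7% of all genes were called. In Lachit it was 241-fold higher, with an interval of 89.4 to 647 (adjusted p = 1.08e-08), where 58.1% were called. Activase remained 43.7-fold higher in leaf in Hacha and 539-fold in Lachit. RBCS5 in Hacha was not called between leaf and root (1.95-fold, adjusted p = 0.278, edgeR). RBCS3 there lost its call without leaf library 2 or root library 2, with log2 differences of 1.35 and 1.67, and RBCS4 without root library 2, at 2.38.

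RBCS1 had the opposite order of organs, 3.19-fold lower in control leaf than in control root in Hacha and 3.6-fold lower in Lachit (adjusted p = 0.000535 and 0.000217, edgeR). Its levels were 8.38, 7.32 and 7.77 TPM in control roots of Hacha and 10.1, 5.37 and 5.43 TPM in those of Lachit. Every control root library lay above every control leaf library. Under excess iron no organ difference was called for RBCS1 (log2 difference 0.59 in Hacha, adjusted p = 0.238, and -0.39 in Lachit, adjusted p = 0.368, edgeR).

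The iron response itself differed between the organs in all 6 genes in Hacha, where 46.3% of all genes were called. The log2 response in leaf minus that in root was -6.43 for the pool (SE 0.79, adjusted p = 3.53e-06, edgeR), -2.83 for activase (SE 0.58, adjusted p = 0.00057) and 2.26 for RBCS1 (SE 0.55, adjusted p = 0.00255). Without control root library 3 those of the pool and activase were -7.05 and -3.47. In Lachit, where 32% of all genes were called, the differences were -2.06 for the pool (SE 0.72, adjusted p = 0.0353), 1.46 for RBCS1 (SE 0.51, adjusted p = 0.0359) and -1.28 for activase (SE 0.55, adjusted p = 0.0858, edgeR), of which the last was not called. Whether the varieties differ in these organ differences was not tested. In Lachit the pool's call was lost without any of 8 of its 12 libraries (all but leaf control 1 and 2, leaf excess iron 3 and root excess iron 1), with differences from -2.45 to -1.48, and that of RBCS1 without any of 9 (Hacha leaf control 2, all Lachit leaf controls, Lachit leaf excess iron 1 or 2, root control 1, root excess iron 2 or 3), with differences from 1.15 to 1.71.

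By mean TPM the pool ordered the groups as control leaf of Lachit (71690) and of Hacha (62400), excess-iron leaf of Lachit (6868) and of Hacha (848), control (198) and excess-iron (165) root of Hacha, and control (98.8) and excess-iron (29.1) root of Lachit. The control leaves of the varieties overlapped with each other, as did the root groups of Hacha. For RBCS1 the order was led by the control roots, at 7.82 TPM in Hacha and 6.98 TPM in Lachit, whose libraries overlapped.

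The genes whose log2(CPM + 1) followed the pool most closely over the 12 leaf libraries were OS01G0862200 (r = 0.998), OS06G0264800 (r = 0.998) and OS08G0332700 (r = 0.997), among 12463 genes with at least 10 CPM on average. For activase they were OS08G0104600 (r = 0.992), OS12G0276100 (r = 0.987) and OS01G0231900 (r = 0.987). The pool itself had r = 0.924 with activase, which was only rank 438 for activase, while activase had rank 1730 for the pool. For RBCS1 over all 23 libraries they were OS02G0641800 (r = 0.899), OS01G0172200 (r = 0.891) and OS04G0644900 (r = 0.883), among 13991 genes. These correlations describe libraries that share their division into groups of variety and solution and, for RBCS1, of organ, and the files give these identifiers no names.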

How the data were processed

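RNA of whole roots and L2 leaves was extracted from 100 mg of tissue and made into libraries with a TruSeq kit of version 2, per the labels' protocols. Such libraries carry no strand. Per the submitters' processing notes the authors used bcl2fastq and kallisto with the build IRGSP-1.0. Versions and settings: not given in the sources used here. The deposited estimated counts are not normalized, and TPM as deposited is relative to transcript length and to a common total of each library. A further TPM table was not used.

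Transcripts (42346) were summed to 35679 genes and estimated counts were rounded. No replicates agreed within sampling noise (chi-square per gene of at least 7.69). Genes were tested by quasi-likelihood with edgeR 4.0.16 in R 4.3.3, with filterByExpr, TMM scaling and 1 mean per group, fitted over the 4 groups of leaf (25505 genes) or root (27479), or over all 8 (29243) for organ comparisons. For the pool, the rows of RBCS2 to RBCS5 were replaced by their sum. Calls are at a Benjamini-Hochberg adjusted p below 0.05 over all genes. All members passed the filter. The steps were tested on simulated data. Shares were compared with an exact permutation test. Alternatives were DESeq2 1.42.0, limma 3.58.1 on log2(TPM + 1) and log2(TPM + 0.1) for genes of at least 1 TPM in 2 libraries, size factors as in DESeq2, library totals, no filter, length offsets, other sets of groups, a minimum log2 fold change of 1, and leaving out each library. Running numbers in the titles are unique, so no replicates were paired. They run from 1 to 12 for excess iron and from 13 to 24 for control. If samples were handled in that order, which the labels do not say, its part could not be told apart from treatment.

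All 6 members are named; genes of like pattern are the 3 with the highest Pearson r. Members and lists were chosen with earlier results of these data known. The reference table for ASM3414082v1 matched 1 of the files' identifiers and none of the members, so no sequences, positions, pathway genes or organ markers are given.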

Additional observations from a re-analysis of the deposited data

Results flagged for a closer look

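Between the varieties, the leaf response to excess iron differed by a test of the difference (edgeR quasi-likelihood) in the RBCS pool, at 2.50 on the log2 scale for Lachit minus Hacha, in RBCS3, at 3.01, and in RBCS5, at 3.69. At the level of transcripts the same held for OS12T0291100-01 of RBCS3, at 3.06, for OS12T0292400-01 of RBCS5, at 3.70, and for OS11T0707000-03 of activase. The fitted difference of the last, -14.94, depends on the prior count, because the transcript had no reads in control leaves of Hacha, and is no measure of size. The direction of that difference is opposite to those of the RBCS transcripts.

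Between the organs, the response of Hacha differed in the pool, at -6.43 on the log2 scale for leaf minus root, in RBCS2, at -5.58, in RBCS3, at -7.04, in RBCS4, at -6.53, in RBCS5, at -8.23, in activase, at -2.83, and in RBCS1, at 2.26. In Lachit it differed in the pool, at -2.06, in RBCS2, at -2.07, in RBCS3, at -1.99, in RBCS4, at -2.34, and in RBCS1, at 1.46. The adjusted p of RBCS2, RBCS3 and RBCS4 lay between 0.039 and 0.045 (edgeR). Without Lachit root excess-iron library 3 the calls for RBCS3 and RBCS4 were lost, at -1.38 and -1.30. The RBCS2 call was not stable either, since leaving out a library could leave no member called lower, as given below. In both varieties RBCS1 was the member whose response was higher in leaf than in root.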

How the results depend on the processing

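The falls of the RBCS pool in leaves were called under every alternative run, with log2 fold changes from -6.48 to -6.01 in Hacha and from -4.07 to -3.39 in Lachit, and so was that of activase in Hacha leaf, from -2.97 to -2.62. No paired analysis was possible because the titles share no replicate numbers.

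With a minimum log2 fold change of 1, calls were lost for RBCS1 in Hacha leaf (1.15), Hacha root (-1.17) and Lachit root (-0.95), for activase in Lachit leaf (-1.56) and for the pool in Lachit root (-1.62). Members called higher in Hacha leaf then went from 1 to 0, and members called lower from 1 to 0 in Hacha root and from 5 to 0 in Lachit root. With only the 2 groups compared, RBCS1 in Hacha leaf lost its call (1.09, so 0 members higher) and activase gained one between control leaves (1.12), as it did with DESeq2 (1.06). Activase between control roots was called with DESeq2 (-1.04), library totals (-1.12), length offsets (-1.11) and limma on log2(TPM + 1) (-0.97) or log2(TPM + 0.1) (-1.10). With DESeq2, 4 members in place of 2 differed in leaf response between the varieties.

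For the organ difference in Lachit, DESeq2 called 5 members lower in place of 3 and called activase (-1.35). Without the low-count filter RBCS1 was not called (1.32, so 0 members higher in place of 1). The pool was not called with library totals (-1.69, with 0 members lower in place of 3) or with limma on log2(TPM + 1) (-1.65).

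Reversals concerned values that were not called. In Hacha root the pool turned with library totals (-0.12) and with limma (-0.17 with either offset), activase with library totals (-0.22), length offsets (-0.073) and limma on log2(TPM + 1) (-0.29) or log2(TPM + 0.1) (-0.31), and RBCS4 with library totals (-0.008). Between control leaves RBCS5 turned with library totals (0.032).

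Leaving out 1 library in turn gave these ranges. For excess iron in Hacha leaf, RBCS1 ranged from 0.78 to 1.63 (0 to 1 members higher). In Hacha root the ranges were -1.56 to -0.90 for RBCS1 (0 to 1 members lower), -0.63 to 0.45 for RBCS2, -0.20 to 0.92 for RBCS3, -0.19 to 1.00 for RBCS4, -0.085 to 1.13 for RBCS5, -0.21 to 0.69 for activase and -0.35 to 0.77 for the pool. In Lachit root RBCS1 ranged from -1.13 to -0.63, with 3 to 5 members lower. The difference of the leaf responses ranged from 2.18 to 2.84 for the pool and from 0.92 to 1.504 for activase, with 0 to 5 members called. That of the root responses ranged from -2.39 to -1.26 for the pool and from -0.043 to 0.61 for RBCS1.

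Between control leaves of the varieties the ranges were -0.38 to 0.33 for RBCS1, -0.029 to 0.31 for RBCS3, -0.19 to 0.17 for RBCS5, 0.92 to 1.32 for activase and -0.001 to 0.34 for the pool. Between control roots they were -0.34 to 0.11 for RBCS1 and -1.28 to -0.40 for activase. Between excess-iron roots they were -0.077 to 0.58 for RBCS1 and -1.47 to -1.04 for activase, with 3 to 5 members lower. For leaf against root in excess-iron Hacha, RBCS5 ranged from -0.19 to 1.52, with 2 to 4 members higher. The organ difference in Lachit ranged from 1.15 to 1.71 for RBCS1, from -1.55 to -1.05 for activase and from -2.45 to -1.48 for the pool, with 0 to 1 members higher and 0 to 4 lower. The cause of these changes was not tested. When Hacha root under excess iron kept 1 library, its spread was taken to equal that of the remaining groups.

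The number of genes called also moved by more than 1.5 times in places. For the difference of leaf responses it was 4196, with 6488 by DESeq2, 8133 with all groups in 1 fit and 1244 to 6665 when leaving out a library. For that of root responses it was 5332, with 2057 with all groups in 1 fit and 2801 and 3434 without Hacha excess-iron library 2 or 1. Between control leaves it was 4857, with 9302 for these groups alone, 7960 with all groups, and 3224 and 3193 without Lachit library 1 or 2. For excess iron in Lachit leaf it was 9883, with 6450 and 6142 without control library 2 or 3. Between excess-iron leaves it was 10864, with 5015 for these groups alone, and between control roots 8148, with 5116 with all groups. The minimum fold change left 8926 genes in Hacha leaf, 2760 in Lachit leaf, 7602 in Hacha root and 6057 in Lachit root.

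RBCS1 rests on 19 to 82 reads in a leaf library and RBCS4 and RBCS5 on as few as 8 and 10 in Lachit root, which limits their precision. Counts cover no error of the division of reads between copies.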

Other observations

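Some identifiers next to the chromosome 12 RBCS genes had reads in the same libraries. OS12G0274750 had 174, 309 and 251 reads in control leaves of Hacha and 321, 324 and 348 in those of Lachit, against 4, 6 and 4 and 57, 19 and 80 under excess iron. OS12G0291066 had 725, 1374 and 1150 reads in control leaves of Hacha and 0, 38 and 8 under excess iron, and in Lachit 972, 1051 and 987 against 150, 59 and 307. OS12G0291733 had 639, 1296 and 1130 reads in control leaves of Hacha and 0, 17 and 0 under excess iron, and in Lachit 762, 714 and 913 against 92, 11 and 57. In roots none of the 3 had more than 11 reads in a library. The files do not say on which strand these models lie, and whether their reads come from the RBCS genes was not tested. The identifiers were picked for their place in the numbering, with the values of the RBCS genes known.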
